A study of Mus musculus with 35 samples.

Results

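The nuclear-encoded subunits of the mitochondrial respiratory chain and the ATP synthase were followed at the transcript level in the aorta of mice. Members were taken by symbol, as the genes whose names begin with Nduf, Sdh, Uqcr, Cox4 to Cox8 or Atp5 in the form used for subunits, leaving out Cox8b and Cox7a1, which are isoforms of fat and muscle. This gave 78 of the 14174 genes in the table: 37 of complex I, 4 of complex II, 8 of complex III, 12 of complex IV and 17 of complex V. All 78 passed the filter on low values, so none is missing from the counts. The rule works on symbols, so it assigns Ndufa4 to complex I although the protein is now placed in complex IV. It also keeps Atp5s, Atp5sl and Cox7a2l, whose proteins are not certain subunits. RefSeq lists Atp5s and Atp5sl as Dmac2l and Dmac2, yet both stay in the complex V counts. The rule leaves out Cox4i1, Ndufab1, Cyc1 and Cycs. Mitochondrially encoded subunits were not analysed here.

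Aortic RNA was sequenced as 35 libraries in 12 groups that crossed genotype, diet and time on the diet. There were 3 libraries a group, or 2 for the EKO/hA-I mice kept on chow for 6 weeks. All mice were of the C57BL/6 strain and aged 8 weeks at the start; the genotypes were wild type (WT), apolipoprotein E knockout (EKO), and EKO with an excess of human apolipoprotein A-I (EKO/hA-I), so that the EKO/hA-I mice and their EKO controls both lack apoE. Every genotype was fed either regular chow or Western diet (WD), and feeding lasted 6 or 22 weeks, which brought the mice to postnatal week 14 or 30. After perfusion the vessel was excised between its root and the iliac branching and stripped of surrounding fat, and neither a pooling of animals nor the promoter of the apoA-I transgene is given in the sources used here.

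The values are the authors' normalised signal per gene and library. Each library's signal summed to between 907492 and 1137737, with 6850000 to 25320000 reads behind it (median 15040000), judged by how finely its low values are spaced. Apoe was between 416 and 1276 in the 12 WT libraries and between 5.37 and 29.7 in all others. In WT WD 22 weeks replicate 3 the title gave WT and the genotype tag EKO; it was kept as WT, and its Apoe level was 540.4. Smooth muscle markers were present in every library (summed signal 4773 to 44315), and so were markers of brown adipocytes (2395 to 20229), none of which was at 0 anywhere. Both sexes were present: Y-linked transcripts were near 0 in 12 of the 35 libraries, among them 2 of 3 in EKO chow 22 weeks and 0 of 3 in EKO/hA-I chow 22 weeks. A term for this ended 3 calls of named members, given where they occur, and called 70 members in place of 72 in the comparison of those groups. Skeletal muscle markers summed to between 31.9 and 5701 and cardiac muscle markers to between 57.3 and 7192. Group values below are mean ± SD of signal, differences are log2 fold changes ± SE of signal plus 1, n = 3 per group unless stated, and adjusted p is from limma with Benjamini-Hochberg adjustment over all 14157 genes tested. No label states separate cultures or litters for replicates, so the p-values reflect no more than sample-to-sample spread, which may be technical.

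The respiratory chain passes electrons from NADH (complex I) and succinate (complex II) through coenzyme Q to complex III, and from there through cytochrome c to complex IV, which reduces oxygen. Complexes I, III and IV pump protons across the inner mitochondrial membrane, and complex V uses their return to make ATP. Most subunits are encoded in the nucleus and a few in mitochondrial DNA. In brown adipocytes, which surround the thoracic aorta, mitochondria are dense and Ucp1 lets protons back without ATP synthesis. Arterial smooth muscle has fewer mitochondria per cell than brown fat or heart.

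The transcripts of the chain moved as a block between libraries. The mean log2 level of the 78 members ran from 6.34 in EKO chow 6 weeks replicate 3 to 8.08 in WT WD 6 weeks replicate 1, and the members together took between 1.00% and 3.82% of a library's signal. The highest library stood 4.25-fold above the lowest for the median member, and 65 of the 78 members had a ratio between 3 and 6. The smallest ratio was 1.90 (Atp5j, a peripheral-stalk subunit of complex V) and the largest, apart from Cox6a2, was 7.48 (Atp5g1). In contrast, each complex kept nearly the same part of the members' signal: 25.6 to 28.8% for complex I, 9.55 to 12.5% for complex II, 11.2 to 13.9% for complex III, 10.9 to 15% for complex IV and 32.9 to 39.1% for complex V. These shares are on the deposited scale and not per transcript length, so they compare libraries and not complexes.

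From the lowest group upward, the mean log2 level of the 78 members was 6.63 ± 0.12 in EKO/hA-I chow 22 weeks, 6.67 ± 0.29 in EKO chow 6 weeks, 6.92 ± 0.43 in EKO WD 22 weeks and 7.10 ± 0.04 (n = 2) in EKO/hA-I chow 6 weeks. The middle of the order held EKO/hA-I WD 6 weeks (7.21 ± 0.43), WT WD 22 weeks (7.22 ± 0.19), EKO WD 6 weeks (7.28 ± 0.38) and WT chow 6 weeks (7.52 ± 0.41). Highest were WT chow 22 weeks (7.58 ± 0.38), EKO chow 22 weeks (7.68 ± 0.27), EKO/hA-I WD 22 weeks (7.69 ± 0.11) and WT WD 6 weeks (7.78 ± 0.26). Neighbours in this order differed by less than their spread. The ends did not overlap: the 3 EKO/hA-I chow 22 weeks libraries lay between 6.52 and 6.75 and the 3 WT WD 6 weeks libraries between 7.59 and 8.08. The 3 EKO/hA-I WD 22 weeks libraries, of the group next to the highest, lay between 7.57 and 7.79.

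**Figure D1:**
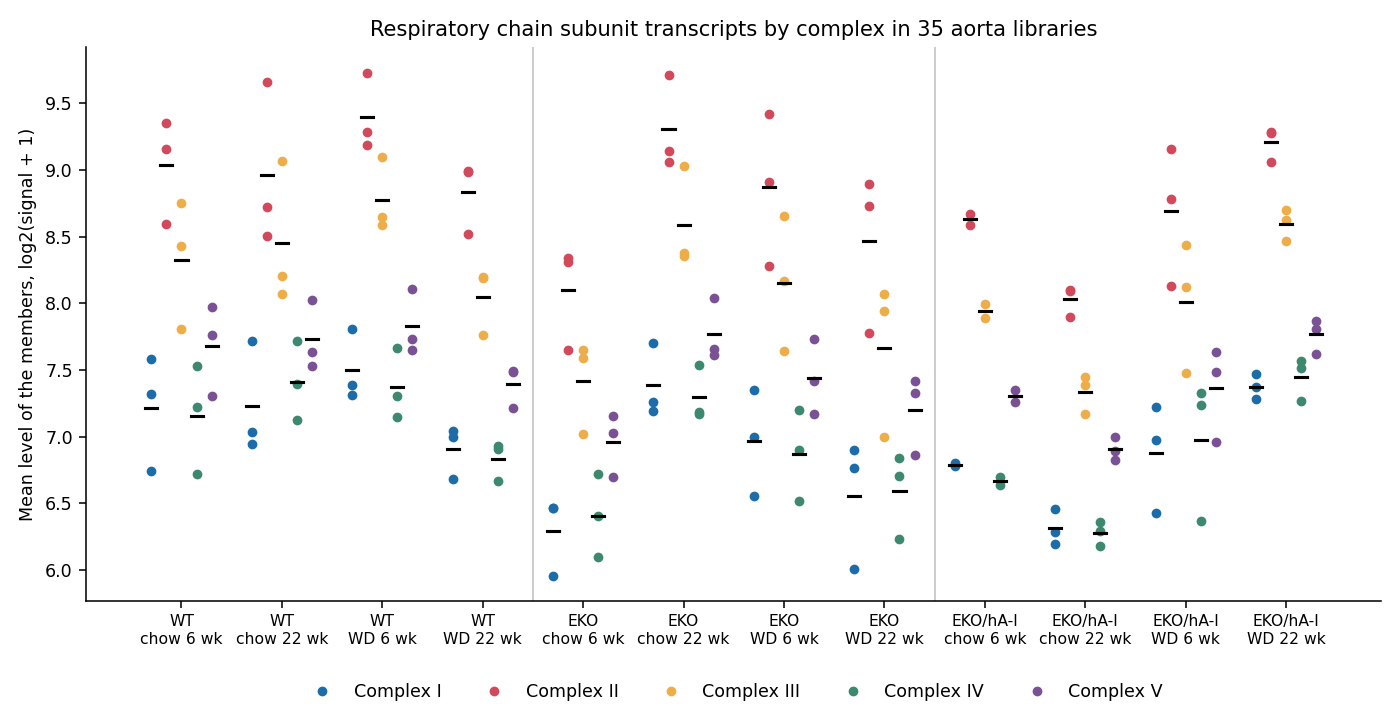
Mean log2(signal + 1) of the members of each complex (vertical axis) in every library, by group; points are libraries, colours are complexes and short black lines are group means. In each group the 5 complexes shift together, with the lowest means over all members in EKO/hA-I chow 22 weeks (6.63) and EKO chow 6 weeks (6.67).

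Among the comparisons of 2 groups, the largest median difference was that between chow and Western diet in EKO/hA-I mice at 22 weeks, where 73 of 78 members were higher on WD and 0 lower (20.7% of all tested genes passed in that direction). The median difference was 1.09, against 0.05 over all genes. All 4 members of complex II and all 8 of complex III passed, with 36 of 37 of complex I, 11 of 12 of complex IV and 14 of 17 of complex V. Atp5b, the catalytic beta subunit of ATP synthase, was at 1690, 1771 and 1476 on chow and at 4754, 5337 and 4211 on WD. The 2 sets of libraries were far apart for this gene. It rose by 1.53 ± 0.37 (adjusted p = 0.00327, limma). Ndufa10, an accessory subunit of complex I, went from 151, 152 and 121 on chow to 438, 447 and 389 on WD, a rise of 1.58 ± 0.35 (adjusted p = 0.00193, limma). The 5 members that did not pass were Atp5g1, Atp5g3, Cox6b2, Ndufa4l2 and Atp5s. Leaving out any 1 of the 6 libraries kept between 66 and 72 of the 73 calls.

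Cox6a2, the heart and skeletal muscle isoform of a complex IV subunit, had the largest fitted rise in that contrast (3.36 ± 0.98, adjusted p = 0.00951, limma). It was at 0.175, 0.126 and 0.435 on chow, and at 13.3, 30.5 and 3.57 on WD. The call was lost without EKO/hA-I WD 22 weeks replicate 2, the highest of these libraries (2.71, adjusted p = 0.0639). Skeletal muscle markers rose with it: 14 of 16 passed, and their summed signal was 88.1 to 105 on chow and 1279 to 4393 on WD, with Acta1, skeletal actin, at 477, 608 and 132 in the WD libraries against 1.40 to 6.10 on chow. Myh6, the cardiac alpha myosin heavy chain, was at 1.97, 776 and 9.30 in the WD libraries, and the summed cardiac markers of replicate 2 were 1641, while 1 of 12 cardiac markers rose in the contrast. The part of the muscle markers in the Cox6a2 difference was not tested. Brown adipocyte markers moved the same way, 14 of 17 higher and 1 lower. Here and below the 17 include the complex IV isoforms Cox8b and Cox7a1. The sums are over the other 15 and were 2632 to 3186 on chow and 9023 to 11655 on WD. Ucp1 itself was at 853, 1084 and 908 on chow and at 4260, 4366 and 3245 on WD. White and general adipocyte markers rose for 7 of 12, and 11 of 12 smooth muscle markers fell (1 rose). Macrophage markers rose for 10 of 15 and fibroblast markers fell for 6 of 12 (1 rose), and the part of these in the members' difference was not tested. In bulk tissue, fewer cells of a type and less RNA per cell cannot be told apart. With a term for the mean log2 level of 15 brown adipocyte markers in the model, 0 of the 78 members passed in this contrast and the median difference was 0.08, but only 0.0141% of all genes passed then, and the summed markers of the 2 groups did not overlap.

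In EKO mice the diet difference at 22 weeks had the opposite sign. On WD, 40 of 78 members were lower and 0 higher (4.8% of all genes passed downward), with a median of -0.81 against 0.02 over all genes. By complex the count was 23 of 37 (I), 1 of 4 (II), 4 of 8 (III), 6 of 12 (IV) and 6 of 17 (V). Uqcrq, a small subunit of complex III, was at 329, 272 and 455 on chow and 81.0, 189 and 187 on WD. It fell by 1.27 ± 0.34 (adjusted p = 0.0103, limma). Atp5d, the delta subunit of the ATP synthase stalk, was at 474, 374 and 543 on chow and 121, 252 and 243 on WD, a fall that reached -1.23 ± 0.28 (adjusted p = 0.00302, limma). The libraries of the 2 diets did not overlap for either gene. Ndufs7, an iron-sulfur core subunit of complex I, fell by 1.21 ± 0.29 (adjusted p = 0.00362, limma), from 256, 199 and 243 to 57.7, 143 and 119. EKO WD 22 weeks replicate 1 was the lowest of the 3 WD libraries for all 3 genes. Without it 7 members passed, and without EKO chow 22 weeks replicate 3 the number was 12. Uqcrq lost its call without either library (adjusted p = 0.124 and 0.0666) and Ndufs7 without EKO WD 22 weeks replicate 1 (adjusted p = 0.0594); a fit of the 6 libraries alone called 14 members.

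Among the members chosen as 1 representative per complex, Uqcrc1, a core protein of complex III, and Cox5a, a nuclear-encoded subunit of complex IV, passed for the diet in EKO mice at 22 weeks (-1.07 ± 0.35, adjusted p = 0.0323, and -1.03 ± 0.35, adjusted p = 0.0385, limma). Both lost the call without EKO chow 22 weeks replicate 1 (adjusted p = 0.0577 and 0.0561), without EKO chow 22 weeks replicate 3 (0.152 and 0.173) and without EKO WD 22 weeks replicate 1 (0.303 and 0.295). Ndufs1, the largest core subunit of complex I, Sdhb, the iron-sulfur subunit of complex II, and Atp5b did not pass (-0.71 ± 0.35, -0.84 ± 0.34 and -0.70 ± 0.37, adjusted p = 0.160, 0.0887 and 0.202, limma). Sdhb passed without EKO WD 22 weeks replicate 2 (adjusted p = 0.0380). Macrophage markers rose for 15 of 15 genes in this contrast, with a summed signal of 1459 to 2452 on chow and 8032 to 11963 on WD, and 6 of 12 white and general adipocyte markers fell, while 0 of 17 brown adipocyte markers passed (median -0.68, Ucp1 at 2334, 3350 and 4491 on chow and 603, 3267 and 2233 on WD). In the model with the brown fat term, 44 members were lower and 38 of the 40 calls were kept, against 20.7% of all genes in either direction; the median moved to -0.43. Fibroblast markers rose for 5 of 12 (5240 to 7789 on chow, 13720 to 18394 on WD), and 0 of 12 smooth muscle markers passed although their sums were apart (12883 to 17800 against 6948 to 11449). The part of the macrophage, white adipocyte, fibroblast and smooth muscle markers in the difference was not tested.

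In WT mice the same diet comparison called 0 members at 22 weeks, and 11 had an unadjusted p under 0.05 (1.36% of all genes passed in either direction). The median was -0.39, and 24 members had ranges that did not overlap, all lower on WD (8.22% of all genes). The change of the diet difference between EKO and WT at 22 weeks was tested directly and called 0 members, with 4 at an unadjusted p under 0.05 and a median of -0.44 (6.21% of all genes passed); with the brown fat term 11 were lower (11.2%). The same term gave 1 higher member, Atp5b, for the diet in WT at 22 weeks (2.71% of all genes) and 7 lower members in WT at 6 weeks (2.13%).

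Seen from the apoA-I side at 22 weeks, EKO/hA-I mice had lower members than EKO mice on chow and higher members on WD. On chow 72 of 78 were lower and 0 higher (14.9% of all genes passed downward), with a median of -1.07 against -0.04 over all genes. By complex, 36 of 37 members of complex I, 4 of 4 of complex II, 7 of 8 of complex III, 10 of 12 of complex IV and 15 of 17 of complex V passed. Sdhb was at 476, 430 and 667 in EKO and 212, 199 and 177 in EKO/hA-I. It fell by 1.39 ± 0.34 (adjusted p = 0.00508, limma). Uqcrc1 was at 885, 775 and 1260 in EKO and 412, 316 and 301 in EKO/hA-I, and it fell by 1.48 ± 0.35 (adjusted p = 0.00356, limma). No EKO/hA-I library reached the lowest EKO library for either gene. Cox5a was at 372, 360 and 561 in EKO and 168, 168 and 139 in EKO/hA-I, a difference of -1.41 ± 0.35 (adjusted p = 0.00493, limma). The 3 largest falls were those of Uqcrq (-1.59 ± 0.34), Atp5d (-1.51 ± 0.28) and Cox5b, another nuclear subunit of complex IV (-1.51 ± 0.30), with adjusted p between 8.3e-04 and 0.00208 (limma).

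Ndufs1 (-1.05 ± 0.35, adjusted p = 0.0263) and Atp5b (-1.37 ± 0.37, adjusted p = 0.00882) also fell in EKO/hA-I on chow at 22 weeks (limma). The 6 members without a call were Cox6a2, Uqcrb, Cox6b2, Atp5s, Ndufa4l2 and Atp5g1. Without EKO chow 22 weeks replicate 3, the highest of the EKO libraries, 45 members passed; then Atp5b (adjusted p = 0.0654) and Ndufs1 (0.144) did not. Ndufs1 also lost its call without EKO/hA-I chow 22 weeks replicate 1 (0.0609) and replicate 3 (0.0929). Brown adipocyte markers fell for 9 of 17 (1 rose), with a summed signal of 5315 to 11319 in EKO and 2632 to 3186 in EKO/hA-I, and all 12 white and general adipocyte markers fell (16646 to 25710 against 4783 to 10289). Macrophage markers fell for 10 of 15, and 5 of 12 fibroblast and 3 of 12 smooth muscle markers rose. With the brown fat term 32 members were lower, all of them among the 72 (10.8% of all genes passed in either direction), and the median was -0.43; Sdhb, Uqcrc1 and Cox5a kept their calls (-0.52 ± 0.15, -0.67 ± 0.20 and -0.57 ± 0.18), and Ndufs1 and Atp5b lost theirs (adjusted p = 0.499 and 0.0697). The summed brown adipocyte markers of the groups did not overlap here either, and the part of the other cell types was not tested.

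On WD at 22 weeks, 42 of 78 members were higher in EKO/hA-I than in EKO and 0 lower (5.96% of all genes passed upward), with a median of 0.83. Cox6a1, the widely expressed isoform of the subunit that Cox6a2 replaces in muscle, was at 221, 569 and 578 in EKO and 983, 1036 and 963 in EKO/hA-I. It rose by 1.25 ± 0.33 (adjusted p = 0.00855, limma). Uqcr11, a small subunit of complex III, rose by 1.19 ± 0.27 (adjusted p = 0.00265) and Uqcrq by 1.09 ± 0.34 (adjusted p = 0.0270, limma). Of the representatives, Uqcrc1 (1.07 ± 0.35, adjusted p = 0.0319) and Cox5a (1.02 ± 0.35, adjusted p = 0.0408) passed, whereas Ndufs1, Sdhb and Atp5b gave 0.90 ± 0.35, 0.83 ± 0.34 and 0.85 ± 0.37 (adjusted p = 0.0711, 0.0918 and 0.109, limma) although their libraries did not overlap. These counts rested on single libraries: 3 members passed without EKO WD 22 weeks replicate 1, and 7, 14 and 25 without EKO/hA-I WD 22 weeks replicate 1, 2 and 3. Without EKO WD 22 weeks replicate 2 the number was 58, and Ndufs1, Sdhb and Atp5b then passed (adjusted p = 0.0432, 0.0387 and 0.0375). Cox6a1, Uqcrq, Uqcrc1 and Cox5a did not pass without EKO WD 22 weeks replicate 1 (adjusted p = 0.117, 0.239, 0.283 and 0.290), and the last 3 were also lost without EKO/hA-I WD 22 weeks replicate 1 (0.0817, 0.0869 and 0.127) or replicate 2 (0.0768, 0.0963 and 0.0907), Cox5a also without replicate 3 (0.0567).

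In the same WD comparison brown adipocyte markers rose for 5 of 17 (sums of 2395 to 7792 in EKO and 9023 to 11655 in EKO/hA-I), skeletal muscle markers for 12 of 16 (42.1 to 186 against 1279 to 4393), and macrophage markers fell for 14 of 15 (8032 to 11963 against 1146 to 2678). Fibroblast markers fell for 4 of 12 (13720 to 18394 against 4257 to 7954) and white and general adipocyte markers rose for 2 of 12 (10652 to 11704 against 16004 to 19920), and the part of these cell types was not tested. With the brown fat term 0 members passed (10.1% of all genes did) and the median was 0.08, but the summed brown adipocyte markers of the groups did not overlap. A fit of the 6 libraries alone called 15 members. The shift of the apoA-I difference between the diets at 22 weeks was tested as 1 contrast, added after the data had been seen. It was higher on WD for 73 of 78 members and lower for 0 (15.6% of all genes passed upward), with a median of 1.92. Uqcrq moved most among them (2.68 ± 0.48, adjusted p = 3.89e-04), followed by Uqcrc1 (2.56 ± 0.49, adjusted p = 6.22e-04) and Uqcr11 (2.55 ± 0.38, adjusted p = 9.6e-05, limma). Between 71 and 73 members passed whichever of the 12 libraries was left out, and 3, Ndufa7, Ndufa13 and Uqcr11, with the brown fat term (1.56% of all genes). Both comparisons share libraries with the diet comparisons above, so they do not count as separate evidence. At 6 weeks EKO/hA-I against EKO called 0 members on either diet. On chow 9 members had an unadjusted p under 0.05 (0.0777% of all genes passed) and on WD 1 had (0.0706%), with medians of 0.46 and -0.13. The ranges on chow were apart and higher in EKO/hA-I for 63 members (19.4% of all genes), with 2 libraries in that group.

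**Figure D2:**
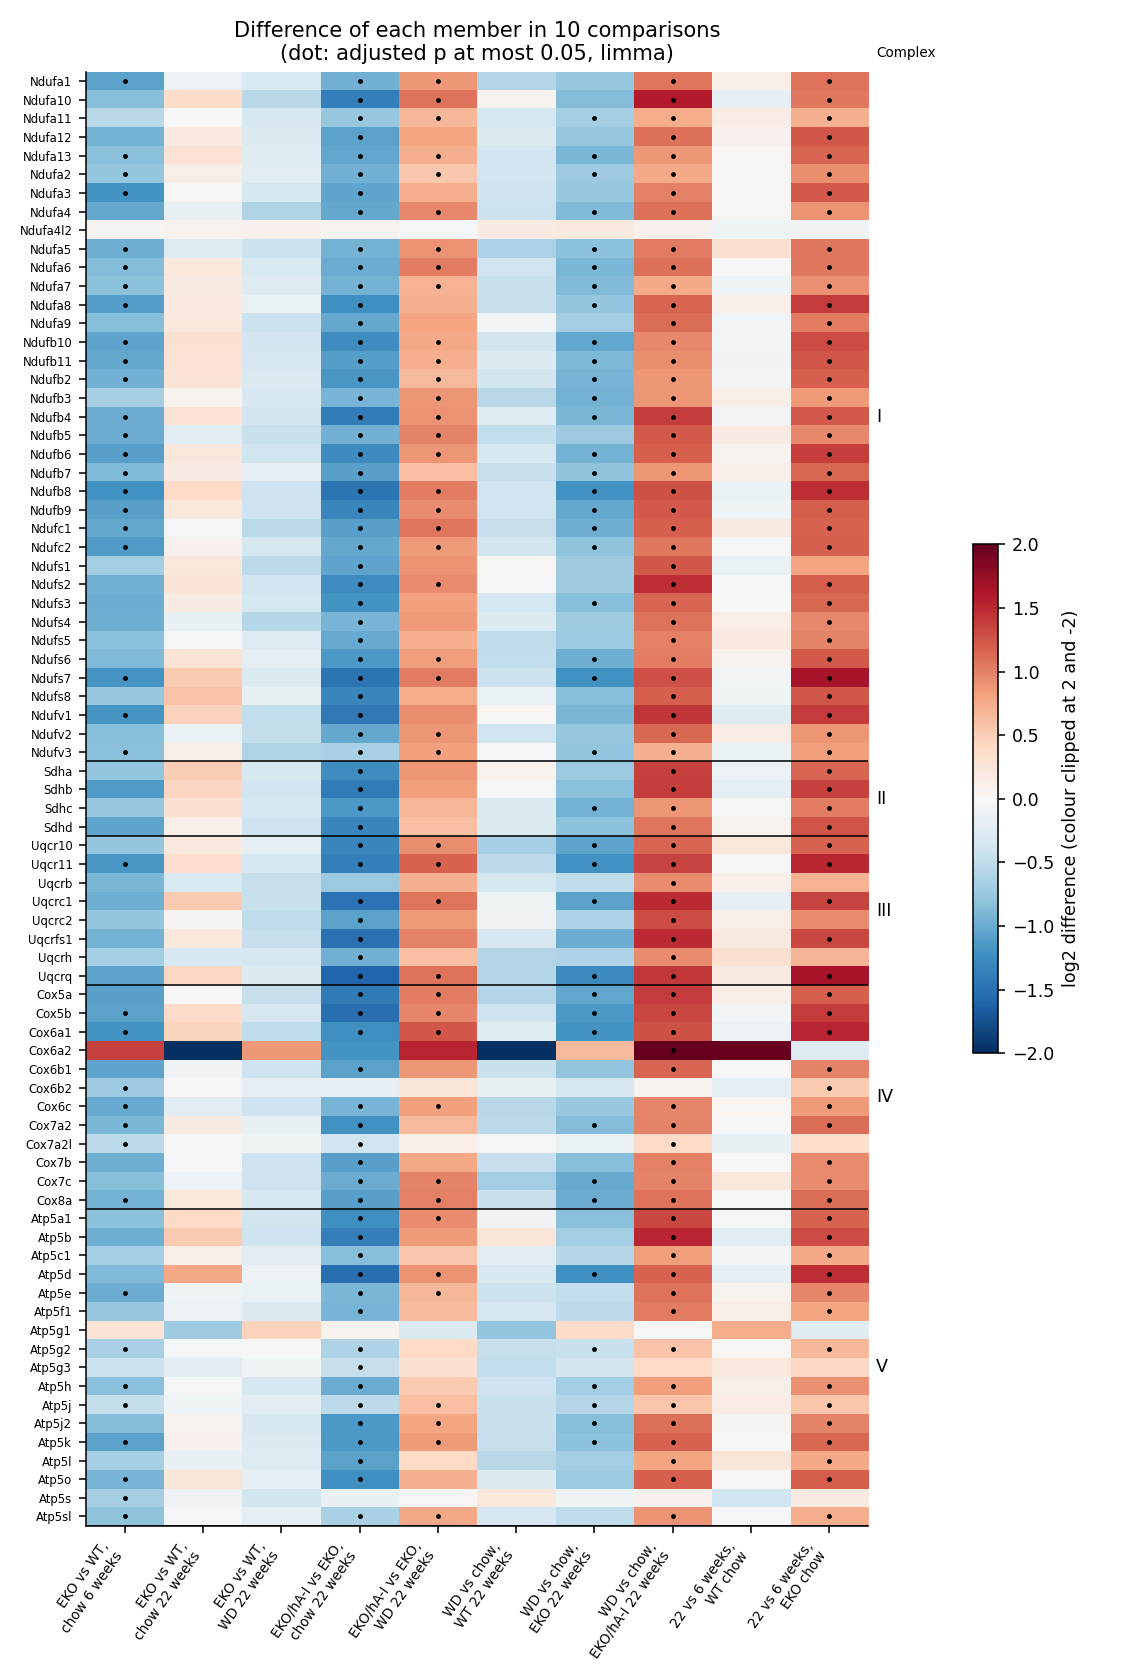
The log2 difference of each of the 78 members (rows, ordered by complex) in 10 comparisons (columns), with colour clipped at 2 and -2 and a dot where adjusted p was at most 0.05 (limma). Whole columns take 1 colour, blue for EKO/hA-I vs EKO on chow at 22 weeks (72 dots) and red for WD vs chow in EKO/hA-I at 22 weeks (73 dots), while the rows of Ndufa4l2, Cox6a2, Atp5g1 and Atp5s stand out from their columns.

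On chow at 6 weeks 38 of 78 were lower in EKO than in WT and 0 higher (2.71% of all genes passed downward), with a median of -0.91 against 0.01 over all genes. The calls were 22 of 37 in complex I, 0 of 4 in complex II, 1 of 8 in complex III, 7 of 12 in complex IV and 8 of 17 in complex V, although the medians of the 5 complexes lay between -0.96 and -0.80. Ndufb8, an accessory subunit of the complex I membrane arm, was at 464, 380 and 250 in WT and 168, 191 and 109 in EKO. It fell by 1.21 ± 0.32 (adjusted p = 0.0319, limma). Cox6a1 fell by 1.19 ± 0.33 (adjusted p = 0.0365), and Ndufa3, another accessory subunit, by 1.19 ± 0.28 (adjusted p = 0.0220, limma). The libraries of the 2 genotypes were apart and lower in EKO for 69 members, against 14.5% of all genes. The count depended on single libraries: it was 0 without WT chow 6 weeks replicate 1 or replicate 2 or without EKO chow 6 weeks replicate 3, 8 without EKO chow 6 weeks replicate 2, and 65 without WT chow 6 weeks replicate 3. Ndufb8, Cox6a1 and Ndufa3 lost their calls without WT replicate 1 (adjusted p = 0.233, 0.240 and 0.197), WT replicate 2 (0.110, 0.126 and 0.0804) or EKO replicate 3 (0.229, 0.228 and 0.155), and the first pair also without EKO replicate 2 (0.0542 and 0.0606). A fit of the 6 libraries alone called 0. Of the brown adipocyte markers 3 of 17 fell, and their sums did not overlap (3814 to 8334 in WT, 2421 to 3564 in EKO). With the brown fat term 9 members passed (0.975% of all genes). Fibroblast markers rose for 4 of 12 (4832 to 5637 in WT, 8529 to 17599 in EKO), and their part in the difference was not tested.

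At 22 weeks on chow 0 members passed between EKO and WT, with 2 at an unadjusted p under 0.05 and a median of 0.14 (15.3% of all genes passed in either direction). The brown fat term gave 12 higher members in EKO (23.5% of all genes). The difference between the 22-week and the 6-week contrast was 1.05 in the median and passed for 31 members, all upward (7.32% of all genes), led by Ndufs7 (1.70 ± 0.41, adjusted p = 0.00930), Atp5d (1.66 ± 0.40, adjusted p = 0.00998) and Cox6a1 (1.63 ± 0.46, adjusted p = 0.0219, limma). In the model with that term 38 members passed, the same 31 among them (15.1% of all genes in either direction). Here too single libraries mattered. Without WT chow 6 weeks replicates 1, 2 and 3 the number was 4, 10 and 52, and without WT chow 22 weeks replicates 1, 2 and 3 it was 8, 64 and 13. Without EKO chow 6 weeks replicate 3 it was 5, and without EKO chow 22 weeks replicates 1 and 3 it was 16 and 7; a fit of the 4 groups alone called 0. Cox6a1 lost the call in 5 of the cases with 1 library left out (adjusted p = 0.0504 to 0.0762, limma), where Ndufs7 and Atp5d kept theirs. All 3 lost it in the fit of the 4 groups alone.

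On WD, EKO and WT differed for 0 members at 6 weeks (32 at an unadjusted p under 0.05, median -0.52, 5.44% of all genes passed) and for 0 at 22 weeks (1 at an unadjusted p under 0.05, median -0.34, 22% of all genes). At 22 weeks the brown fat term gave 4 lower members, Ndufa4, Ndufv3, Ndufs4 and Ndufc1 (28.6% of all genes). The change of that difference from 6 to 22 weeks on WD called 0, with 0 at an unadjusted p under 0.05 (8.64% of all genes). Averaged over both diets and durations, 55 of 78 members were lower in EKO and 0 higher (13.8% of all genes passed downward), with a median of -0.41. The 4 settings differed, with medians of -0.91 and 0.14 on chow at 6 and 22 weeks and calls only on chow at 6 weeks. The largest fall was that of Ndufa4 (-0.65 ± 0.16, adjusted p = 0.00239, limma). Ndufb5 (-0.63 ± 0.15, adjusted p = 0.00169) and Ndufs4 (-0.62 ± 0.16, adjusted p = 0.00461) followed (limma). All of these are complex I members by the symbol rule. Uqcrb of complex III (-0.61) and Cox5a of complex IV (-0.61) came next. Under the brown fat term 20 of the 78 members were lower, all among the 55. That is a smaller share than the 30% of all genes that passed in either direction.

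Time on the diet was followed by a rise in EKO mice on chow. From 6 to 22 weeks 68 of 78 members were higher and 0 lower (13.3% of all genes passed upward), with a median of 1.07. Ndufs7 was at 91.9, 75.8 and 56.8 at 6 weeks and 256, 199 and 243 at 22 weeks. It rose by 1.64 ± 0.29 (adjusted p = 6.82e-04, limma), with the lowest library at 22 weeks above the highest at 6 weeks. Uqcrq rose by 1.65 ± 0.34 (adjusted p = 0.00189) and Cox6a1 by 1.52 ± 0.33 (adjusted p = 0.00228, limma). Without EKO chow 6 weeks replicate 3 the number was 33 and without EKO chow 22 weeks replicate 3 it was 41. Brown adipocyte markers rose for 9 of 17 (2421 to 3564 at 6 weeks, 5315 to 11319 at 22 weeks), macrophage markers for 9 of 15, and white and general adipocyte markers for 7 of 12 (8099 to 11769, then 16646 to 25710). Smooth muscle markers fell for 4 of 12 (28798 to 35773, then 12883 to 17800) and fibroblast markers for 3 of 12 (8529 to 17599, then 5240 to 7789). The part of the macrophage, white adipocyte, smooth muscle and fibroblast markers was not tested. With the brown fat term 27 of the 78 members were higher, all among the 68 (12.2% of all genes passed in either direction). The summed brown adipocyte markers of both durations did not overlap.

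In WT mice on WD 2 members fell from 6 to 22 weeks and 0 rose (3.46% of all genes passed downward): Ndufa7, an accessory subunit of complex I (-0.60 ± 0.18, adjusted p = 0.0464), and Atp5g2 (-0.55 ± 0.16, adjusted p = 0.0375, limma). In all, 47 members had an unadjusted p under 0.05, the median was -0.61, and 62 members had ranges apart (17.2% of all genes, downward). Both calls were lost when any of 5 of the 6 libraries was left out (all but WT WD 6 weeks replicate 3), with the brown fat term (0.579% of all genes), and in a fit of the 2 groups alone. In EKO mice on WD Ndufa7 alone fell (-0.59 ± 0.18, adjusted p = 0.0311, limma; 2.97% of all genes passed downward), from 62.4, 89.6 and 79.2 to 39.7, 53.7 and 60.04. It was lost without EKO WD 6 weeks replicate 2 or 3 or EKO WD 22 weeks replicate 1 (adjusted p = 0.143, 0.107 and 0.204). Leaving out EKO WD 6 weeks replicate 1 gave 4 members and leaving out EKO WD 22 weeks replicate 2 gave 2. With the brown fat term 1 member, Uqcrc2, was higher (21.9% of all genes).

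Duration in WT on chow, in EKO/hA-I on chow and in EKO/hA-I on WD called 0 members (limma), with 2, 7 and 15 at an unadjusted p under 0.05 (0.12%, 0.00706% and 0.0706% of all genes passed). The medians were 0.01, -0.44 and 0.53. In EKO/hA-I on chow, with 2 libraries at 6 weeks, 69 members had ranges apart, all lower at 22 weeks (21.5% of all genes). On WD 49 had ranges apart, all higher (15.5%). In WT on chow the brown fat term gave 2 lower members, Atp5b and Sdhb (2.81%). At 6 weeks the diet called 0 in WT, EKO and EKO/hA-I, the last with 2 libraries on chow. Members at an unadjusted p under 0.05 numbered 1, 49 and 1 (1.43%, 0.0848% and 0.00706% of all genes passed). The EKO median there was 0.64, and 33 members had ranges apart, all higher on WD (12.7% of all genes). Averaged over the settings, EKO/hA-I against EKO, WD against chow and 22 against 6 weeks called 0 each, with 1, 8 and 1 at an unadjusted p under 0.05 (8.32%, 15.1% and 2.09% of all genes). Under the brown fat term the first gave 3 lower members, Atp5l, Sdhd and Cox7a2 (11.9% of all genes) and the second 19 (9.49%).

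**Figure D3:**
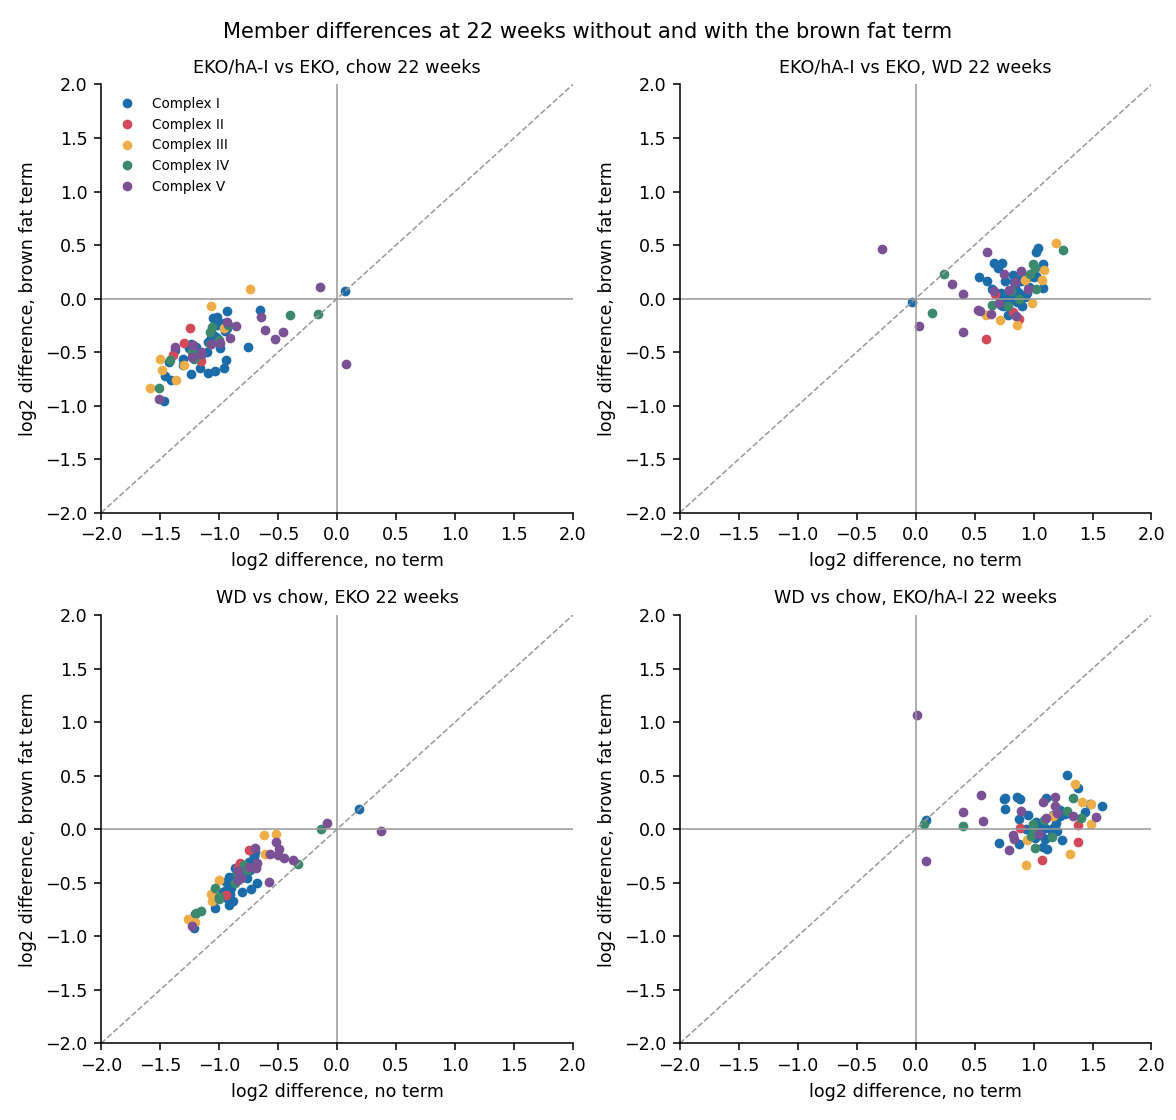
The log2 difference of each member without (horizontal) and with (vertical) the mean log2 level of 15 brown adipocyte markers as a term, in 4 comparisons at 22 weeks; points are members coloured by complex, the dashed line marks equal values, and Cox6a2 is not drawn. In WD vs chow in EKO nearly all points keep a value below 0 with the term (median -0.81 and -0.43), and in WD vs chow in EKO/hA-I they fall to around 0 (median 1.09 and 0.08).

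Other mitochondrial lists were counted in the same comparisons. In EKO/hA-I against EKO on chow at 22 weeks, where 14.9% of all genes were lower, 11 of 13 citric acid cycle genes fell and 0 rose, for example Mdh2 (malate dehydrogenase, -1.29 ± 0.33, adjusted p = 0.00636), 15 of 16 genes of mitochondrial fatty acid oxidation fell and 1 rose, for example Acads (short-chain acyl-CoA dehydrogenase, -1.52 ± 0.34, adjusted p = 0.00283), and 66 of 77 mitochondrial ribosomal proteins fell, for example Mrpl34 (-1.44 ± 0.27, adjusted p = 8.3e-04, limma). Genes of coenzyme Q synthesis (9 of 13), assembly factors of the complexes (33 of 46) and mitochondrial carriers, import and chaperone genes (16 of 19) fell and none of them rose. Cytosolic ribosomal proteins did not follow as a group: 7 of 78 fell and 1 rose, with a median of -0.13. In WD against chow in EKO/hA-I at 22 weeks, where 20.7% of all genes were higher, 12 of 13 citric acid cycle genes, 15 of 16 of fatty acid oxidation (1 fell), 68 of 77 mitochondrial ribosomal proteins, 12 of 13 of coenzyme Q synthesis, 36 of 46 assembly factors and 16 of 19 carrier and import genes rose. For the diet in EKO mice at 22 weeks, where 4.8% of all genes were lower, 1 of 13 citric acid cycle genes, 1 of 16 of fatty acid oxidation (1 rose), 18 of 77 mitochondrial ribosomal proteins, 1 of 13 of coenzyme Q synthesis, 9 of 46 assembly factors and 2 of 19 carrier and import genes fell.

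Members that the symbol rule left out gave the same direction in the comparisons named here. Of 8 such subunits and carriers, 7 fell in EKO/hA-I against EKO on chow at 22 weeks (14.9% of all genes passed downward). With WD in EKO/hA-I at 22 weeks 7 rose (20.7% of all genes passed upward). Cyc1, the cytochrome c1 of complex III, and Cox4i1 were among them in both. The lung isoform Cox4i2 passed in neither. Cox8b and Cox7a1, the fat and muscle isoforms of complex IV, fell in the first of these comparisons and rose in the second. Ppargc1a, a coactivator of mitochondrial gene expression, did not pass in EKO/hA-I against EKO on chow at 22 weeks (-0.33, adjusted p = 0.724, limma), nor for the diet in EKO/hA-I at 22 weeks (1.30 ± 0.64, adjusted p = 0.109, limma), where it was at 22.5, 26.1 and 37.6 on chow and 113, 82.9 and 36.9 on WD.

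Across the 35 libraries 69 of 78 members correlated with the mean of the other members at a Pearson r above 0.9 (median 0.96), and after removal of the group means 61 did (median 0.947). Ndufb9 (0.989), Ndufs3 (0.987) and Cox5a (0.987) followed the rest most closely. Among all other genes the 10 with the highest r to the members' mean were Cox4i1 (0.981), Ndufab1 (0.980), Cox17, 2310061I04Rik, Mrps7, Mief2, Mrps36, Mrpl12, Minos1 and Timm44 (0.973); all libraries share their depth and tissue makeup, so these values describe likeness only. The members' mean had an r of 0.915 with the brown adipocyte marker level, 0.724 with white and general adipocyte markers, -0.715 with fibroblast and -0.569 with smooth muscle markers, and 0.127 and -0.029 with skeletal and cardiac muscle markers. With the number of reads behind a library the r was -0.34.

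The relation to Ucp1, the uncoupling protein of brown fat, was tested for 1 member per complex. Over 35 libraries Pearson's r was 0.850 for Ndufs1, 0.885 for Sdhb, 0.873 for Uqcrc1, 0.899 for Cox5a and 0.881 for Atp5b, with Spearman's rho between 0.823 and 0.894. The permutation p was 1e-05 for each, the smallest that 100000 resamples can give, and 2e-05 after adjustment over the 10 relations tested. Without the 2 libraries farthest from the median Ucp1, r lay between 0.810 and 0.871, and between deviations from the group means it lay between 0.851 and 0.898. With Acta1 the same 5 members had r between 0.139 and 0.220 (adjusted permutation p = 0.34 to 0.42), and from -0.0911 to 0.0458 within groups.

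**Figure D4:**
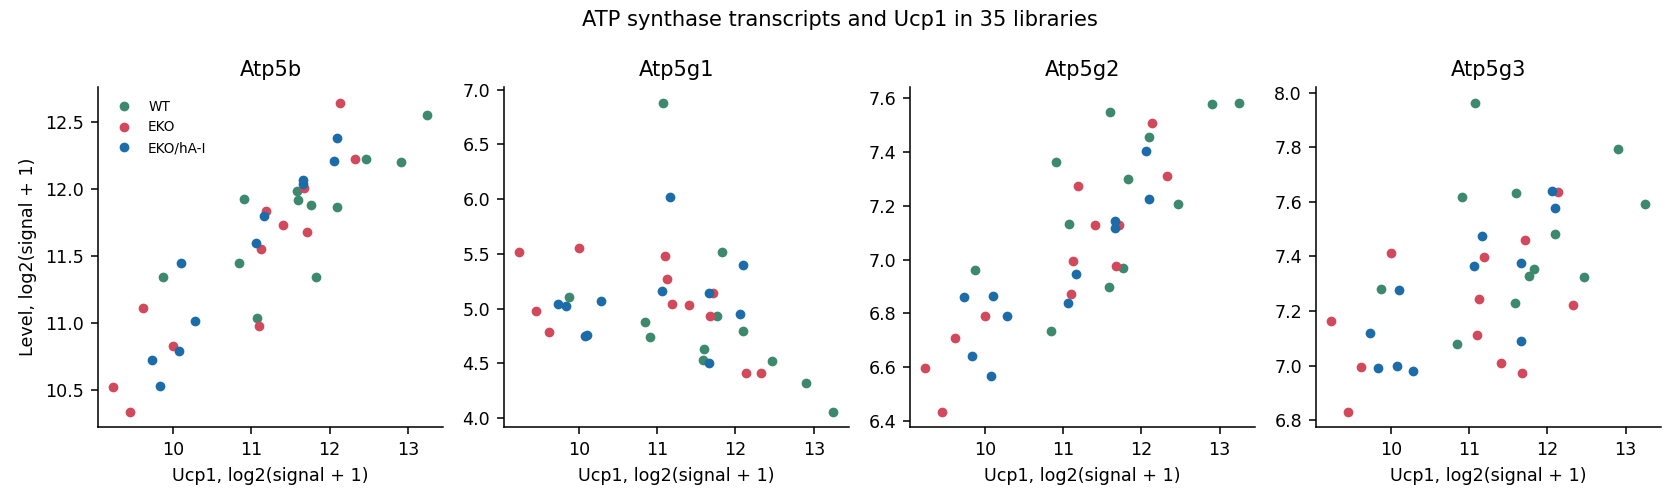
Level of Atp5b and of the 3 genes for the c subunit (vertical axes, log2(signal + 1)) against Ucp1 (horizontal axes, log2(signal + 1)); each point is 1 of the 35 libraries, coloured by genotype. Atp5b, Atp5g2 and Atp5g3 rise with Ucp1, Atp5g3 less steadily, and Atp5g1 does not.

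The c subunit of ATP synthase forms the membrane ring that turns with the proton flow. Its 3 genes, Atp5g1, Atp5g2 and Atp5g3, encode it with different import sequences and the same mature protein. Their transcripts did not move together. Atp5g2 followed the other members and fell in EKO/hA-I against EKO on chow at 22 weeks by 0.61 ± 0.16 (adjusted p = 0.00652, limma), from 154, 139 and 181 to 115, 93.8 and 98.8. Atp5g3 fell by 0.46 ± 0.17 (adjusted p = 0.0380, limma), a call lost without any 1 of the 6 libraries (adjusted p = 0.0515 to 0.140) and with the term for Y-linked transcripts (0.105). Atp5g1 was at 31.9, 34.4 and 20.3 in EKO and 32.0, 26.0 and 31.4 in EKO/hA-I, and the groups overlapped (0.07 ± 0.41, adjusted p = 0.908, limma). For the diet in EKO mice at 22 weeks Atp5g2 fell by 0.45 ± 0.16 (adjusted p = 0.0486, limma), a call lost without EKO chow 22 weeks replicate 1 or 3 or EKO WD 22 weeks replicate 1 or 3 (adjusted p = 0.0511 to 0.290) or with the term for Y-linked transcripts (0.056), and Atp5g3 (-0.37 ± 0.17, adjusted p = 0.122) and Atp5g1 (0.38 ± 0.41, adjusted p = 0.557) did not pass.

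Atp5g1 was the member least like the others (r = -0.351), followed by Ndufa4l2 (-0.0278), a relative of Ndufa4, and Cox6a2 (0.0971). Next came Cox6b2 (0.362), an isoform known from testis, Atp5s (0.491), Atp5g3 (0.740) and Cox7a2l (0.847), a factor that joins complexes III and IV. The 3 least alike were low: medians over the libraries were 30.4 for Atp5g1, 12.6 for Ndufa4l2 and 0.83 for Cox6a2. Ndufa4l2 stayed between 8.34 and 18.5 in all 35 libraries and passed in none of the comparisons. Cox7a2l ranged from 105 to 206. It fell in EKO/hA-I against EKO on chow at 22 weeks by 0.40 ± 0.14 (adjusted p = 0.0294, limma) and did not pass for the diet in EKO at 22 weeks (-0.13 ± 0.14, adjusted p = 0.525). The first call was lost without EKO chow 22 weeks replicate 3 (0.141) or EKO/hA-I chow 22 weeks replicate 1, 2 or 3 (0.0708, 0.0548 and 0.0769), and with the term for Y-linked transcripts (0.0573).

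The share of Atp5g1 in the summed signal of the 3 c-subunit genes ran from 3.92% in WT WD 6 weeks replicate 1, the library with the highest Ucp1 (9750), to 23.2% in WT chow 22 weeks replicate 1. The latter had the highest level of Myh6 (3658), and the library with the next Myh6 level, EKO/hA-I WD 6 weeks replicate 1 (2128), had a share of 17.6%. The same pair of libraries had the highest Cox6a2, 83.7 and 45.9, against 30.5, 13.7 and 13.3 in the 3 libraries that came next, all EKO/hA-I on WD, and at most 10.2 elsewhere. Over 35 libraries the r with Myh6 was 0.644 for Atp5g1 and 0.696 for Cox6a2, and Cox6a2 also had an r of 0.711 with Acta1. Without the pair of libraries, a check chosen after seeing the data, the likeness of Atp5g1 to the other members was -0.537 and that of Cox6a2 was 0.121. The summed cardiac markers, Myh6 among them, were also highest in these libraries (7192 in the WT and 3856 in the EKO/hA-I library, at most 1641 in the rest), and their part in these values was not tested.

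**Figure D5:**
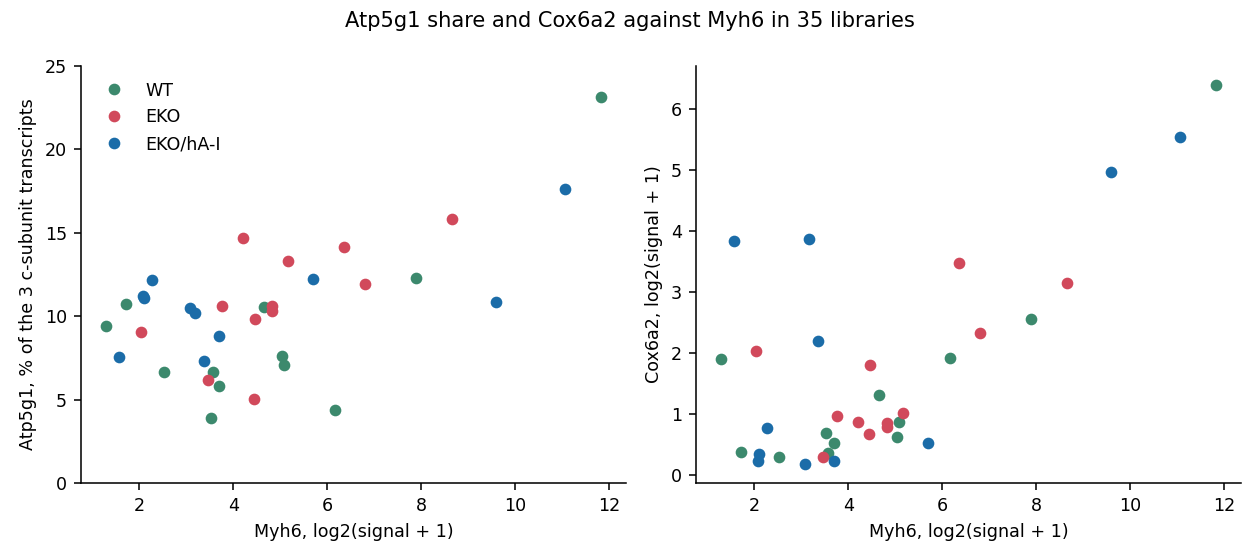
Share of Atp5g1 in the 3 c-subunit transcripts (left, percent) and level of Cox6a2 (right, log2(signal + 1)) against Myh6 (horizontal axes, log2(signal + 1)); points are the 35 libraries, coloured by genotype. The library with the highest Myh6 has the highest share (23.2%) and the highest Cox6a2 (83.7).

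The promoter windows of the members were also compared with those of all genes. A link between motifs and the joint movement of the members was not tested. RefSeq (GRCm38.p6) gave a window of 300 bases, 250 before and 50 after the start, for 66 of the 78 members, 63 by symbol and 3 by synonym. Windows are shown for 1 member each of complexes II, III and IV that moved with the block and for the 3 c-subunit genes, of which Atp5g1 did not. Capitals mark the motifs searched on both strands: GCGCA followed by any base and GCGC (the NRF1 motif), CCGGAAG (GABPA), TCAAGGTCA (ERRA) and AAGATGGCG (YY1).
Uqcrc1: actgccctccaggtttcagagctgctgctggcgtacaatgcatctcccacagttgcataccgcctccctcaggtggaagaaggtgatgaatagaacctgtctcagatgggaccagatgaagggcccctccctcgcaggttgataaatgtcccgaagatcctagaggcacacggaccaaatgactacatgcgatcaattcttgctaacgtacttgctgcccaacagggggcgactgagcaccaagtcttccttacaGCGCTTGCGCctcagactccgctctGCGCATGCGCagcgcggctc
Sdhd: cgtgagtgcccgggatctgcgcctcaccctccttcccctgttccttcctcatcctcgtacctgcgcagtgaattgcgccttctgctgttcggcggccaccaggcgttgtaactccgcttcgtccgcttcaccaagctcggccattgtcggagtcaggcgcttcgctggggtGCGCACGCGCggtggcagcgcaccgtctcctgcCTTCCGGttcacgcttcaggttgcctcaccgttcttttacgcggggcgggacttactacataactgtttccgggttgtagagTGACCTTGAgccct
Cox6a1: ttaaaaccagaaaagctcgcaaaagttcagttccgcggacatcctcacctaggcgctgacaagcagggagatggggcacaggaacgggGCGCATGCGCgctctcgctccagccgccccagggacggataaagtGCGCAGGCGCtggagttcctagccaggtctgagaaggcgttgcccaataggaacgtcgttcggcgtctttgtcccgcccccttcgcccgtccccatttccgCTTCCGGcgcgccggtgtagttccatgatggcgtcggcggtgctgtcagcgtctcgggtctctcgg
Atp5g1: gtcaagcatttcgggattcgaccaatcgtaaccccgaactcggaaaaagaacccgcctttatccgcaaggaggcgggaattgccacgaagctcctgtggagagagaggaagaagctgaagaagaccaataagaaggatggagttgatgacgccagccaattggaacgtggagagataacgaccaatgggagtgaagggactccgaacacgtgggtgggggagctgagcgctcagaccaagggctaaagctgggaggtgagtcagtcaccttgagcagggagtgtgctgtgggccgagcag
Atp5g2: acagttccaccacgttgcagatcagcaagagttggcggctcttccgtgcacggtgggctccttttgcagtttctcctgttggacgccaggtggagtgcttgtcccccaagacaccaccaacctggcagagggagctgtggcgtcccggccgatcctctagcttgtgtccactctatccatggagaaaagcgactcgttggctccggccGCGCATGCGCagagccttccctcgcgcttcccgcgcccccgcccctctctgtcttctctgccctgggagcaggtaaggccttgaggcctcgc
Atp5g3: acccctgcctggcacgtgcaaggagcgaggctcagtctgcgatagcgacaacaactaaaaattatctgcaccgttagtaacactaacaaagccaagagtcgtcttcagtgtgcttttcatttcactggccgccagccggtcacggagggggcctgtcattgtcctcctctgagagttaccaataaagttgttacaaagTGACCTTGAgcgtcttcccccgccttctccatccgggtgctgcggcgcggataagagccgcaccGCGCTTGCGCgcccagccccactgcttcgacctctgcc

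The window of Uqcrc1 lies at chr9:108936398-108936697 on the plus strand, that of Sdhd at chr9:50603800-50604099 on the minus strand and that of Cox6a1 at chr5:115348909-115349208 on the minus strand. Those of the c-subunit genes lie at chr11:96075582-96075881 on the minus strand (Atp5g1), chr15:102670998-102671297 on the minus strand (Atp5g2) and chr2:73911277-73911576 on the minus strand (Atp5g3). Uqcrc1 held 2 matches to the NRF1 motif, Cox6a1 held 2 and 1 to the GABPA motif, and Sdhd held 1 each of the NRF1, GABPA and ERRA motifs. The Atp5g2 window held 1 NRF1 match and the Atp5g3 window 1 NRF1 and 1 ERRA match. The Atp5g1 window held none of the 4, which says only that these letters are not in it. The windows of Cox5a and Atp5b, which followed the other members (r = 0.99 and 0.92), also held none. That of Sdhb held 1 GABPA match. Over the 66 windows the NRF1 motif was found in 16 (24.2%, against 4.78% of 27025 windows of the same length), the GABPA motif in 15 (22.7% against 9.12%), the YY1 motif in 7 (10.6% against 1.49%) and the ERRA motif in 2 (3.03% against 0.407%). A total of 33 members had none of them, and 6 had 2 or more. Sdhd, Cox6a1 and Atp5g3 are among the latter, so the windows shown are richer in motifs than most. Median GC content was 57.8% in the members' windows and 52.7% in all windows. Those 27025 windows were not limited to the 14157 genes tested here. A match describes the sequence and does not show that the factor binds in the aorta.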

How the data were processed

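Mouse aortic RNA in 35 libraries of 12 groups was analysed from 1 table of 14174 genes. Its columns hold normalised signal, as deposited by the authors; the counting step and the scaling are not given in the sources used here. Bowtie 0.12.2, Bowtie2, RSEM and the builds mm8 and mm9 are named, with no role, per the submitters' processing notes. Steps between low values matched whole reads within 0.02 for 71.9 to 82.1% of values, so reads were not recovered and no count test was run. The depth was 6850000 to 25320000 reads per library by that step.

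Values were tested as log2(signal + 1) with limma 3.58.1 (R 4.3.3, robust and trended), in 1 fit of all 12 groups so that they share 1 estimate of the spread, over 14157 genes; 17 that reached a value of 1 in fewer than 3 libraries were dropped. Two-sided p-values were adjusted by the Benjamini-Hochberg method, each comparison separately, and calls were made at 0.05. Of 28 comparisons, 27 were fixed by the design and 1 (the apoA-I difference between diets at 22 weeks) was added after seeing the data. Correlations used Python 3.11.15 and permutation tests of 100000 resamples. The script was tested on simulated data. The brown fat term is the mean log2 level of 15 brown adipocyte markers, without Cox8b and Cox7a1, as a covariate. Where the summed markers of the compared groups did not overlap, it could not be cleanly separated from the group. A further fit added skeletal and cardiac muscle marker terms.

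The members and lists were chosen with earlier results of these data known. Genes named are the catalytic or role members of each complex, the 3 largest differences in each direction where a member passed, the 3 members least and most like the others, the 10 most alike other genes, set mitochondrial and tissue markers, and up to 3 genes of smallest p per list; Cox7a2l, Cox6b2, Atp5s the members listed as not called and those named for the brown fat term were named after their values were seen. Alternatives were pseudocounts of 0.1 and 5, no filter, median-ratio rescaling, a replicate block, the marker terms, a term for the presence of Y transcripts, the compared groups alone, and each replicate left out. No label says that replicate numbers pair samples. Same-numbered samples deviated together, with every pair above 0.1, in 22 vs 6 weeks of EKO on WD (r = 0.12 to 0.44) and WT on WD (0.13 to 0.34), and in EKO/hA-I on chow (0.28 to 0.35), which has 2 pairs; the block changed no call in these.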

Additional observations from a re-analysis of the deposited data

Results flagged for a closer look

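In 2 cases the same contrast differed between groups by a test of the difference itself. The difference of EKO from WT on chow was not the same at 22 as at 6 weeks for 31 members (7.32% of all genes passed upward). The difference of EKO/hA-I from EKO at 22 weeks was not the same on WD as on chow for 73 members (15.6% upward). Both used limma with adjusted p at most 0.05. The first kept no call in a fit of the compared groups alone, and the second contrast was added after the data had been seen. The first count depended on single libraries and ran from 4 to 64 as each was left out; the second ran from 71 to 73.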

How the results depend on the processing

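Pseudocounts of 0.1 and 5, no filter, rescaling and the replicate block changed no call of a named gene, and the block changed only WD vs chow averaged over 6 settings (from 0 members to 1). With the brown fat term 9 members were called for EKO vs WT on chow at 6 weeks (0.975% of all genes, either direction). The brackets that follow give the same share. The number was 12 on chow at 22 weeks (23.5%) and 4 on WD at 22 weeks (28.6%). It was 32 for EKO/hA-I vs EKO on chow at 22 weeks (10.8%) and 0 on WD (10.1%). For WD vs chow it was 7 (2.13%) and 1 (2.71%) in WT at 6 and 22 weeks. In EKO/hA-I at 22 weeks it was 0 (0.0141%). For 22 vs 6 weeks it was 2 in WT on chow (2.81%) and 0 on WD (0.579%). In EKO it was 27 on chow (12.2%) and 1 on WD (21.9%), the last upward in place of downward. The averages gave 20 (EKO vs WT, 30%), 3 (EKO/hA-I vs EKO, 11.9%) and 19 (WD vs chow, 9.49%). The EKO vs WT difference between diets at 22 weeks gave 11 (11.2%) and the apoA-I difference between diets 3 (1.56%).

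With muscle terms added, these became 13, 3 and 3 for EKO vs WT, 11 on chow and 1, downward in place of upward, on WD for EKO/hA-I vs EKO at 22 weeks, 7 for WD vs chow in WT at 6 weeks and 0 in EKO/hA-I at 22 weeks, 0, 26 and 2 for 22 vs 6 weeks in WT on WD, EKO on chow and EKO on WD, 20, 3 and 28 for the averages and 0 for the apoA-I difference between diets. The compared groups alone gave 0 for EKO vs WT on chow at 6 weeks, 15 for EKO/hA-I vs EKO on WD at 22 weeks, 14 for WD vs chow in EKO at 22 weeks, and 0 for 22 vs 6 weeks in WT and EKO on WD and for the EKO vs WT change on chow; these fits have fewer samples. The cause of the other changes was not tested. No share of all genes is given for the fits with muscle terms, of the compared groups alone or with 1 replicate left out. Their counts can therefore not be set against such a share.

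The term for Y transcripts ended 3 calls of named members (Atp5g3, Cox7a2l and Atp5g2) and turned no sign. With both terms Ndufa10 (-0.013) and Atp5b (-0.025) turned in WD vs chow of EKO/hA-I at 22 weeks. In EKO/hA-I vs EKO on WD at 22 weeks the brown fat term and both terms gave -0.066 and -0.263 for Ndufs1, -0.129 and -0.307 for Sdhb and -0.160 and -0.268 for Atp5b, and both terms gave -0.040 for Uqcrc1 and -0.167 for Cox5a. Atp5g1, which had no call, turned in EKO/hA-I vs EKO on chow at 22 weeks (-0.611 and -0.179; -0.154 to 0.213 with 1 replicate left out, the lowest without EKO chow 22 weeks replicate 3) and in WD vs chow of EKO at 22 weeks (-0.013 and -0.170), as did Cox7a2l in the latter (0.004). The relations to Acta1 within groups were -2.35e-05 (Ndufs1), -0.0393 (Sdhb), -0.0145 (Uqcrc1) and -0.0911 (Atp5b).

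Leaving out 1 replicate each gave 0 to 65, 0 to 3, 0 to 4 and 0 to 1 members for EKO vs WT on chow at 6 and 22 weeks and on WD at 6 and 22 weeks, 45 to 71 and 3 to 58 for EKO/hA-I vs EKO at 22 weeks on chow and WD, 7 to 53 and 66 to 73 for WD vs chow at 22 weeks in EKO and EKO/hA-I, and 0 to 2, 33 to 68 and 0 to 4 for 22 vs 6 weeks in WT on WD, EKO on chow and EKO on WD. It gave 40 to 66 for the EKO vs WT average, 0 to 5 for the WD vs chow average, 4 to 64 for the EKO vs WT change on chow, 0 to 1 for the EKO vs WT difference between diets at 22 weeks, 71 to 73 for the apoA-I difference between diets and 0 in the other comparisons. Bulk tissue, 2 or 3 libraries a group and an unstated scaling limit these values, and no counting interval can be given.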
